A study of Mus musculus with 2 samples.

Results

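Pax6, Rax, Lhx2, Six3, Six6, Meis2 and Prox1 are homeobox transcription factor genes that act in the eye field or in retinal progenitors. They were chosen by symbol, 7 of the 27998 gene rows of the count matrices, and their levels were followed across the cell classes, the dividing state and the genotypes of mouse retina at postnatal day 8. The cells came from dissected peripheral retina, the area where the α-Cre transgene is active. The first group, DKO-Skp2+/-, carried α-Cre, Rbf/f, p107-/- and skp2+/-, and labels call these mice tumor-resistant. The second group, DKO, carried α-Cre, Rbf/f and p107-/- with both Skp2 alleles, and labels call these mice tumor-prone. Deletion of Rb by α-Cre and loss of p107 were therefore shared by both groups, no group with intact Rb was analysed here, and how many animals were pooled per library was not given in the sources used here. The α-Cre transgene is driven by a retinal regulatory element of Pax6 itself, so Cre acts in cells that descend from peripheral progenitors.

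In development, Rax, Six3, Six6, Lhx2 and Pax6 cooperate to specify the eye field and to hold progenitors multipotent. Most of these factors are later kept in restricted sets of mature cells: Pax6 in amacrine and ganglion cells, Lhx2 and Rax in Müller glia, Prox1 in horizontal, bipolar and AII amacrine cells, and Meis2 in subsets of amacrine cells. Each library was 1 sample of its genotype, with 1 library per group. No difference between genotypes could therefore be tested, and every interval below is a 95% interval of counting error only.

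The DKO-Skp2+/- library held 5196 barcodes and 25766024 unique molecular identifiers (UMIs, each standing for 1 captured transcript), and the DKO library held 3621 barcodes and 24413761 UMIs. After filtering and doublet removal, 4978 and 3515 cells remained, at medians of 3799 and 4867 UMIs per cell. The sequencing depth thus differed between libraries, and 38.1% of kept DKO-Skp2+/- cells lay below the shallowest DKO barcode. The libraries shared 30 cell barcodes. Skp2, the F-box gene that lost 1 copy in DKO-Skp2+/- mice, stood at 57.0 counts per 1000000 UMIs (CPM) in DKO-Skp2+/- cells and 80.5 CPM in DKO cells, a ratio of 0.708 (0.660 to 0.760). Dividing cells, defined as at least 3 UMIs from 26 core proliferation genes after thinning each cell to 1500 UMIs, made up 44.7% of DKO-Skp2+/- cells and 57.1% of DKO cells. In these libraries 773 and 483 cells sat next to that threshold, at 2 or 3 UMIs.

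Cells were clustered without the 7 genes and without fixed lists of cell cycle genes, and clusters were named from marker lists that hold none of the 7. The clusters still differed in division: every cell of clusters 2, 4 and 14 was dividing in both libraries. The 8 named classes with at least 50 cells in each library were progenitor-, Müller glia-, neurogenic precursor-, photoreceptor and bipolar precursor-, immature neuron-, amacrine-, bipolar- and rod-like cells. The progenitor-like class (1304 DKO-Skp2+/- and 783 DKO cells) joined cluster 1, led by the Notch target Hes5 and by Sox8, and cluster 2, with Tagln2 first and the mitotic genes Prc1 and Birc5 among its 10 leading genes, in which every cell was dividing. Cluster 1 held 836 DKO-Skp2+/- and 279 DKO cells and cluster 2 held 468 and 504, so different clusters made up most of the class in each library. Microglia-like cells (41 DKO-Skp2+/- and 29 DKO cells), which should lack all 7 genes, gave the background: none of the 7 exceeded 47.8 CPM there in either library, at median depths of 7519 and 9600 UMIs per cell.

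All 7 genes are protein-coding, and their positions follow GENCODE M21 on GRCm38. Pax6 (ENSMUSG00000027168) lies on chromosome 2 at 105668900 to 105697364, Lhx2 (ENSMUSG00000000247) on chromosome 2 at 38339281 to 38369733, and Meis2 (ENSMUSG00000027210) on chromosome 2 at 115863064 to 116065839. Six3 (ENSMUSG00000038805) lies on chromosome 17 at 85613608 to 85629302, and Six6 (ENSMUSG00000021099) on chromosome 12 at 72939892 to 72944899. Prox1 (ENSMUSG00000010175) lies on chromosome 1 at 190118035 to 190170714. Rax is placed further on. Other annotated genes overlap each of the 7 except Meis2, and whether the counting used strand was not given in the sources used here.

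Meis2 binds DNA at the core motif TGACAG, so the promoters of 6 of the genes, Meis2 included and Rax not, were searched for it on both strands. The search covered RefSeq promoters of GRCm38.p6, from 250 bases before to 50 bases after each start. The motif was found in 6300 of 32851 promoters (19.2%) and in 3 of the 9 promoters of these 6 genes. The 3 sites shown come from these 3 promoters, of Pax6, Six6 and Six3. Capitals mark the motif, read 5′ to 3′ on the strand of the gene, and in Pax6 it reads as the reverse complement CTGTCA.
Pax6, chr2:105682292-105682321 (GRCm38.p6, + strand): cggagcggagcaCTGTCAcaaagtgacaag
Six6, chr12:72939824-72939853 (GRCm38.p6, + strand): cagcctagtgacTGACAGggggtctccatg
Six3, chr17:85620683-85620712 (GRCm38.p6, + strand): gattggcagggcTGACAGtgattggcagtg
The motif began 159 bases before a RefSeq start of Pax6, 46 before that of Six6 and 139 before that of Six3. The Pax6 and Six3 sites lie in introns of longer protein-coding transcripts of the same gene, and the Six6 site lies in an untranslated exon of the opposite-strand gene 4930447C04Rik. A match describes these letters only and shows neither binding nor regulation.

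Across classes, the 7 genes did not share 1 pattern, and only Lhx2 was highest in the progenitor-like or Müller glia-like cells. The other 6 had their highest level elsewhere, but for Six6 the Müller glia-like interval overlapped that of the highest class in both libraries. The class with the highest level was the same in both libraries for 6 of the 7 genes, Pax6 being the exception. These are 3′ transcript counts, so levels are compared between cells for each gene and not between genes.

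**Figure D1:**
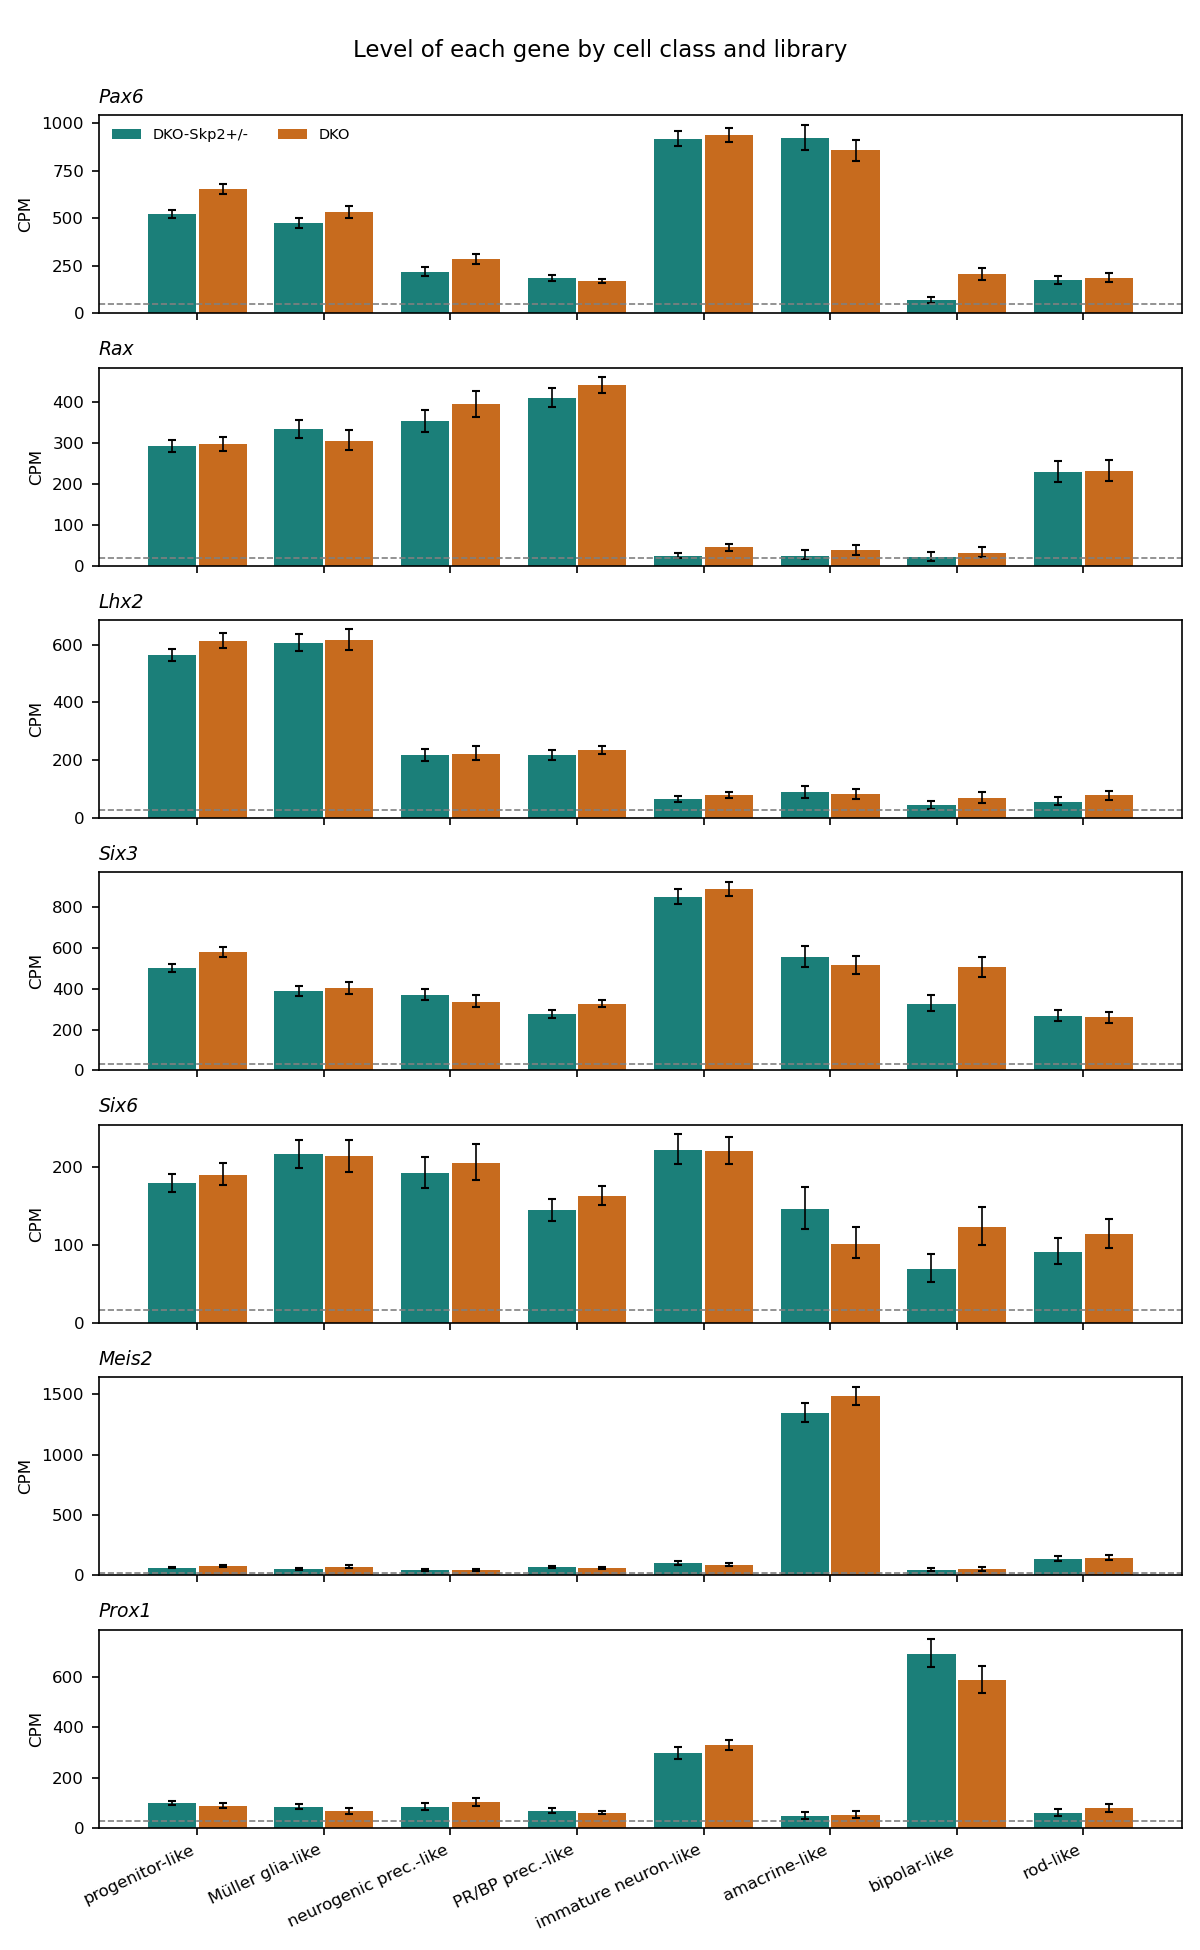
Level of each gene in CPM (linear axes from 0) in 8 cell classes; bars give the DKO-Skp2+/- library (left, green) and the DKO library (right, orange), error bars the exact Poisson 95% interval, and the dashed line the higher of the 2 microglia-like levels. PR/BP prec. stands for photoreceptor and bipolar precursor. Meis2 stands out in amacrine-like cells at 1346 and 1488 CPM, and Prox1 in bipolar-like cells at 695 and 589 CPM.

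Pax6, a paired-domain factor needed for progenitor multipotency and kept in amacrine cells, had its highest levels in amacrine-like and immature neuron-like cells. It stood at 924 CPM in DKO-Skp2+/- and 857 CPM in DKO amacrine-like cells, and at 918 and 939 CPM in immature neuron-like cells, levels whose intervals overlapped within each library. Progenitor-like cells held 522 CPM in DKO-Skp2+/- and 654 CPM in DKO, followed by Müller glia-like cells at 475 and 532 CPM. The lowest DKO-Skp2+/- level was in bipolar-like cells at 67.6 CPM, 13.7-fold under the highest class. In DKO the lowest class was the photoreceptor and bipolar precursor-like cells at 169 CPM, 5.57-fold under the highest.

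Lhx2, a LIM-homeodomain factor required for eye field specification and for Müller glial development, was highest in glia-like and progenitor-like cells. Müller glia-like cells held 607 CPM in DKO-Skp2+/- and 617 CPM in DKO, and progenitor-like cells 563 and 613 CPM, with overlapping intervals. Photoreceptor and bipolar precursor-like cells came next with 218 and 235 CPM. Bipolar-like cells had the lowest level, 43.5 CPM in DKO-Skp2+/- and 69.3 CPM in DKO. Progenitor- and Müller glia-like cells together gave 42.0% and 23.0% of all Lhx2 UMIs of the DKO-Skp2+/- library, against 36.7% and 18.7% in the DKO library.

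Rax, the retina and anterior neural fold homeobox gene (ENSMUSG00000024518, chromosome 18 at 65928277 to 65939787), followed a different order. It was highest in photoreceptor and bipolar precursor-like cells, at 411 CPM in DKO-Skp2+/- and 442 CPM in DKO, and next in neurogenic precursor-like cells at 354 and 395 CPM. Müller glia-like cells held 335 and 306 CPM and progenitor-like cells 292 and 299 CPM. In immature neuron-, amacrine- and bipolar-like cells it lay between 20.6 and 24.6 CPM in DKO-Skp2+/-, near the microglia-like 19.1 CPM, and between 31.1 and 44.4 CPM in DKO, where microglia-like cells held 11.1 CPM (2.28 to 32.3). Rod-like cells kept 229 and 231 CPM. Within the precursor class, cluster 10, whose leading genes were Txnip, Myc and the stress-response gene Gadd45b, held 2.44-fold (2.16 to 2.75) and 2.02-fold (1.85 to 2.21) the Rax level of cluster 6 in DKO-Skp2+/- and DKO cells.

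Six3 and Six6, related homeobox genes of the sine oculis type that act in the forebrain and eye field, were broadly distributed and both highest in immature neuron-like cells. Six3 stood at 852 CPM in DKO-Skp2+/- and 889 CPM in DKO immature neuron-like cells, and was lowest in rod-like cells at 268 and 260 CPM. Six6 also varied little, with 223 and 221 CPM in immature neuron-like cells and 217 and 214 CPM in Müller glia-like cells, with overlapping intervals. The highest class exceeded the lowest by 3.24-fold in DKO-Skp2+/- and 2.17-fold in DKO for Six6, and by 3.18-fold and 3.42-fold for Six3, the narrowest ranges of the 7 genes in DKO-Skp2+/- and in DKO. Within immature neuron-like cells, Six6 and Pax6 were higher in cluster 7, led by Lrfn5, Ebf3 and Nhlh2, than in cluster 5, led by Klhl35 and Igfbpl1. The Six6 ratio of cluster 7 to cluster 5 was 2.04 (1.71 to 2.43) in DKO-Skp2+/- and 1.82 (1.54 to 2.14) in DKO, and that of Pax6 was 1.76 (1.61 to 1.91) and 1.67 (1.54 to 1.81).

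Meis2, a TALE-class homeodomain factor that partners with Pax and Pbx proteins, was concentrated in amacrine-like cells. These held 1346 CPM in DKO-Skp2+/- and 1488 CPM in DKO, while the other 7 classes reached at most 138 and 146 CPM, in rod-like cells. Amacrine-like cells were 2.93% of DKO-Skp2+/- and 4.84% of DKO cells and carried 41.1% and 49.8% of all Meis2 UMIs. Progenitor-like cells had 63.5 and 73.1 CPM, above the microglia-like levels of 19.1 and 3.69 CPM. After thinning every cell to 1500 UMIs, 72.6% (64.6 to 79.7) of DKO-Skp2+/- and 81.8% (75.1 to 87.3) of DKO amacrine-like cells had a Meis2 UMI. Unthinned shares were 86.3% and 91.2%, against 7.32% and 3.45% of the more deeply covered microglia-like cells.

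Prox1 is a divergent homeodomain factor that promotes cell cycle exit and horizontal cell fate. Among the 8 classes it peaked in bipolar-like cells and was next highest in immature neuron-like cells. Bipolar-like cells held 695 CPM in DKO-Skp2+/- and 589 CPM in DKO, and immature neuron-like cells 297 and 329 CPM. Progenitor-like cells held 96.8 and 87.3 CPM, and Müller glia-like cells 84.0 and 65.3 CPM. Amacrine-like cells had the lowest level, 46.7 and 50.0 CPM. That class does not include the unnamed cluster 19, which has Slc6a9 of the amacrine list among its leading genes. Cluster 19 held 915 CPM of Prox1 in DKO-Skp2+/- and 936 CPM in DKO. Horizontal-like cells, only 17 in DKO-Skp2+/- and 12 in DKO, reached 828 CPM (721 to 946) and 1086 CPM (936 to 1252), the cell type in which Prox1 is best known.

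Within interneurons the genes split clusters that marker lists joined or left unnamed. Cluster 12, led by the neuropeptide genes Cartpt and Sst and by Tfap2b, and cluster 16, led by Crybb3 and Maf, were both amacrine-like and carried similar Meis2, at 1355 and 1326 CPM in DKO-Skp2+/- and 1506 and 1452 CPM in DKO. Six3 separated them: cluster 16 held 1435 CPM in DKO-Skp2+/- and 1063 CPM in DKO, against 171 and 227 CPM in cluster 12. The ratio of cluster 16 to cluster 12 was 8.38 (6.67 to 10.6) in DKO-Skp2+/- and 4.68 (3.88 to 5.67) in DKO. Six6 had the opposite order, at 48.5 CPM in cluster 16 against 189 CPM in cluster 12 in DKO-Skp2+/-, and at 60.3 against 124 CPM in DKO.

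Cluster 19 (23 DKO-Skp2+/- and 24 DKO cells) matched no marker list well enough to be named and was led by Lamp5, the connexin-36 gene Gjd2 and, further down, the glycine transporter gene Slc6a9. Its Prox1 level was 915 CPM in DKO-Skp2+/- and 936 CPM in DKO, 14.8-fold (9.85 to 22.6) and 15.5-fold (10.7 to 22.7) that of cluster 12. Its Pax6 level was 760 and 856 CPM, close to that of cluster 12 at 827 and 724 CPM. Its Meis2 rested on 1 UMI in DKO-Skp2+/- and 2 in DKO. Clusters 12 and 16, rich in Meis2, held between 12.1 and 61.8 CPM of Prox1 over both libraries.

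**Figure D2:**
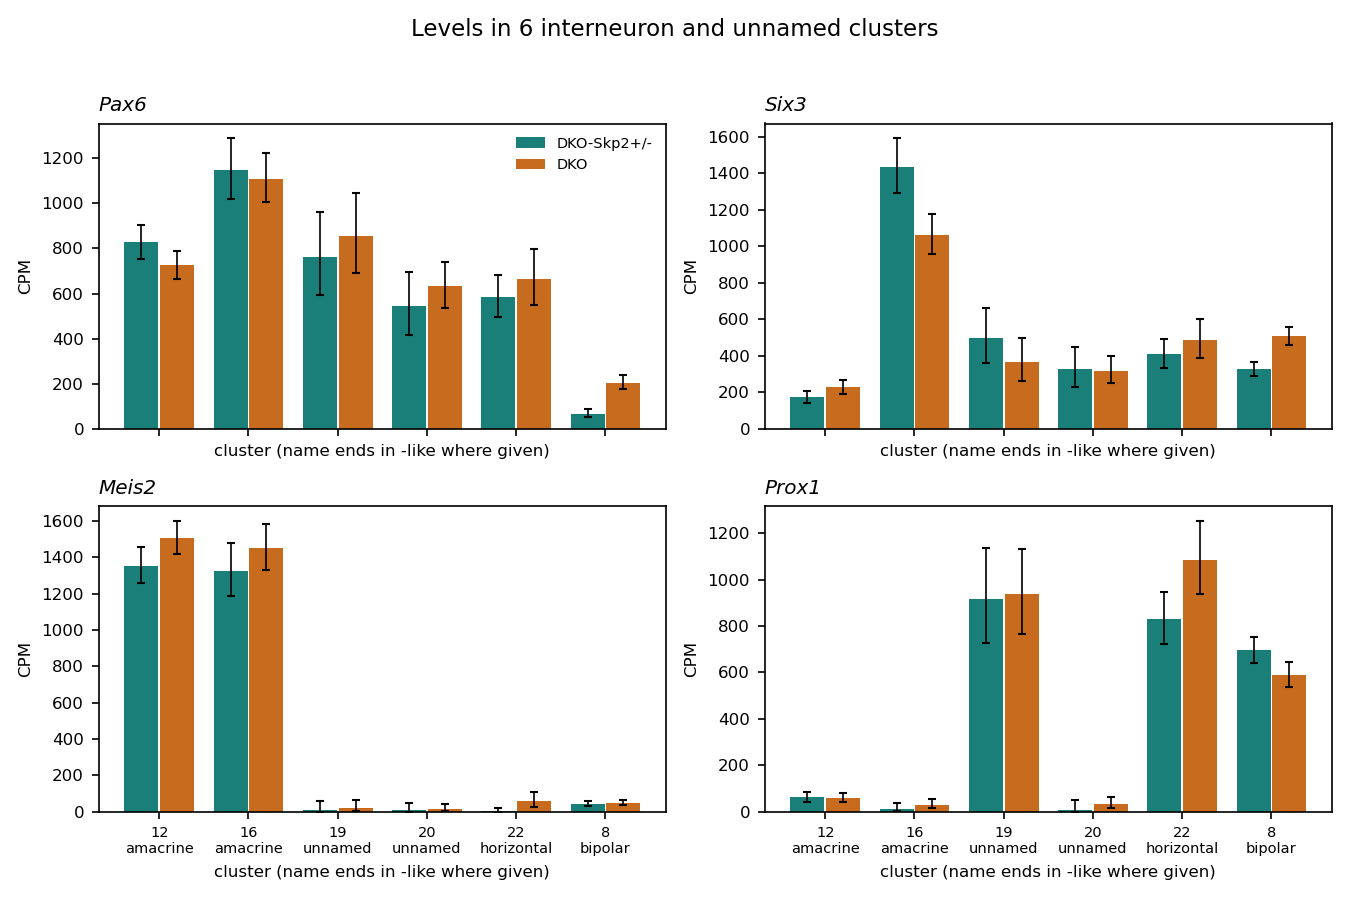
Levels of Pax6, Six3, Meis2 and Prox1 in CPM (linear axes from 0) in 6 clusters; bars give the DKO-Skp2+/- library (left, green) and the DKO library (right, orange) with exact Poisson 95% intervals. Clusters 12 and 16 carry Meis2 between 1326 and 1506 CPM with little Prox1, clusters 19, 22 and 8 carry Prox1 with little Meis2, and Six3 is highest in cluster 16.

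Müller glia-like cells also held distinct clusters. Cluster 13 (80 DKO-Skp2+/- and 40 DKO cells), led by Prss56 and Col9a1, had higher Prox1 and Pax6 and lower Meis2 than cluster 3, led by Npy and Cox4i2. Prox1 stood at 141 CPM in cluster 13 against 73.0 CPM in cluster 3 in DKO-Skp2+/-, and at 143 against 56.2 CPM in DKO. Pax6 stood at 662 against 439.6 CPM in DKO-Skp2+/- and at 937 against 484 CPM in DKO. The Lhx2 ratios of cluster 13 to cluster 3 were 0.93 (0.81 to 1.07) in DKO-Skp2+/- and 0.87 (0.71 to 1.06) in DKO. Rod-like cells split too: cluster 18 (28 and 32 cells) held 585 CPM of Pax6 in DKO-Skp2+/- and 569 CPM in DKO, against 63.8 and 92.4 CPM in the larger cluster 9. Cluster 18 thus gave 161 of the 227 rod-like Pax6 UMIs in DKO-Skp2+/- and 153 of the 254 in DKO.

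Progenitor-, Müller glia- and immature neuron-like cells carried the most of the 7 genes at once. After thinning to 1500 UMIs, a progenitor-like cell had a UMI of 2.34 of the 7 genes on average in DKO-Skp2+/- and 2.62 in DKO, a Müller glia-like cell 2.39 and 2.41, and an immature neuron-like cell 2.28 and 2.43. In progenitor-like cells 16.3% in DKO-Skp2+/- and 22.5% in DKO showed 4 or more of the genes, against 0.465% and 3.15% in bipolar-like cells. Microglia-like cells showed 0.22 and 0.069 genes on average. Unthinned, Lhx2 was found in 82.9% of DKO-Skp2+/- and 89.9% of DKO progenitor-like cells and Pax6 in 80.6% and 91.6%. In thinned progenitor-like cells of the DKO-Skp2+/- library, Lhx2 had a UMI in 56.8% of cells with Pax6 and in 56.0% of cells without it. In the DKO library these shares were 61.9% and 58.7%.

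Over the 16 profiles of 8 classes in 2 libraries, each gene was matched to those of 10658 genes with the most similar log2 level. The profiles share libraries, depth and the clustering, so Pearson's r is a description with no test. Lhx2 was most like Nsmce1 (r = 0.98), Sash1 (0.97) and Id2 (0.97), and Rax most like Ssx2ip (0.98), Tmem107 (0.97) and Serhl (0.96). Pax6 was most like Cacng4 (0.95), Pde4d (0.93) and Kcnip3 (0.91), and Six3 most like Mpc1 (0.90), G0s2 (0.87) and again Pde4d (0.87). Six6 was most like Fzd3 (0.95), Cotl1 (0.92) and Lrrn1 (0.90). Meis2 was most like Ptprn (0.96), Vstm2l (0.96) and Syt6 (0.95), and Prox1 most like Plxdc2 (0.92), Pfkfb3 (0.91) and Slco5a1 (0.90). Among the 7 genes themselves, Pax6 and Six3 were the closest pair (0.80), then Lhx2 and Rax (0.73), while Rax and Prox1 were the most opposed (-0.60).

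Between genotypes, none of the 7 genes differed by 1.5-fold over all kept cells. At that fold 0.638% of the 13472 genes with at least 50 UMIs passed, on log2(CPM + 5). Meis2 stood at 111 CPM in DKO-Skp2+/- and 136 CPM in DKO, a ratio of 0.82 (0.78 to 0.87). Pax6 stood at 401 and 455 CPM (0.88, 0.86 to 0.91), and Six3 at 410 and 473 CPM (0.87, 0.84 to 0.89). Lhx2, at 294 CPM in DKO-Skp2+/- and 272 CPM in DKO, was the only one of the 7 with a ratio above 1 (1.08, 1.04 to 1.11). Rax, Six6 and Prox1 had ratios of 0.97, 0.96 and 0.96.

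Holding the make-up of the libraries equal changed these ratios unevenly. With every cluster given the same share of UMIs in both libraries, all 7 ratios lay between 0.91 and 0.97. Those of Lhx2, Six3 and Meis2 became 0.95, 0.95 and 0.96. Pax6, Six6 and Prox1 moved little, to 0.91, 0.97 and 0.97, and Rax moved away from 1, to 0.92. Without amacrine-like cells, Meis2 stood at 67.9 CPM in DKO-Skp2+/- and 71.3 CPM in DKO, a ratio of 0.95 (0.89 to 1.02). The ratios of Pax6 and Six3 without these cells were 0.88 and 0.86. Among non-dividing cells Meis2 stood at 157 CPM in DKO-Skp2+/- and 242 CPM in DKO, past 1.5-fold, where 0.815% of genes were lower in DKO-Skp2+/-. Amacrine-like cells held 3.40% of all UMIs in DKO-Skp2+/- and 4.54% in DKO, and their part in the difference among non-dividing cells was not tested. In the lists of other eye homeobox genes (30 measured of 33, one of them the bHLH gene Bhlhe22), TALE partners (10 of 10), cofactors of Six3, Six6 and Pax6 (12 of 12) and LIM cofactors (9 of 10), 0 genes passed 1.5-fold over all kept cells. Their median log2 differences were -0.06, -0.10, 0.03 and -0.09, beside -0.06 for the 7 genes and 0.02 for all genes. The genes with the widest differences were Zfhx4 (12.9 CPM in DKO-Skp2+/-, 19.4 CPM in DKO) and Sebox (9.46 and 5.90 CPM) among homeobox genes, and Tgif1 (35.1 and 23.5 CPM) and Pbx4 (32.9 and 38.9 CPM) among TALE partners. They were Dach2 (5.82 and 4.62 CPM) and Eya3 (11.9 and 10.1 CPM) among the cofactors of Six3, Six6 and Pax6, and Lmo2 (18.1 and 13.1 CPM) and Ssbp3 (164 and 205 CPM) among LIM cofactors.

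**Figure D3:**
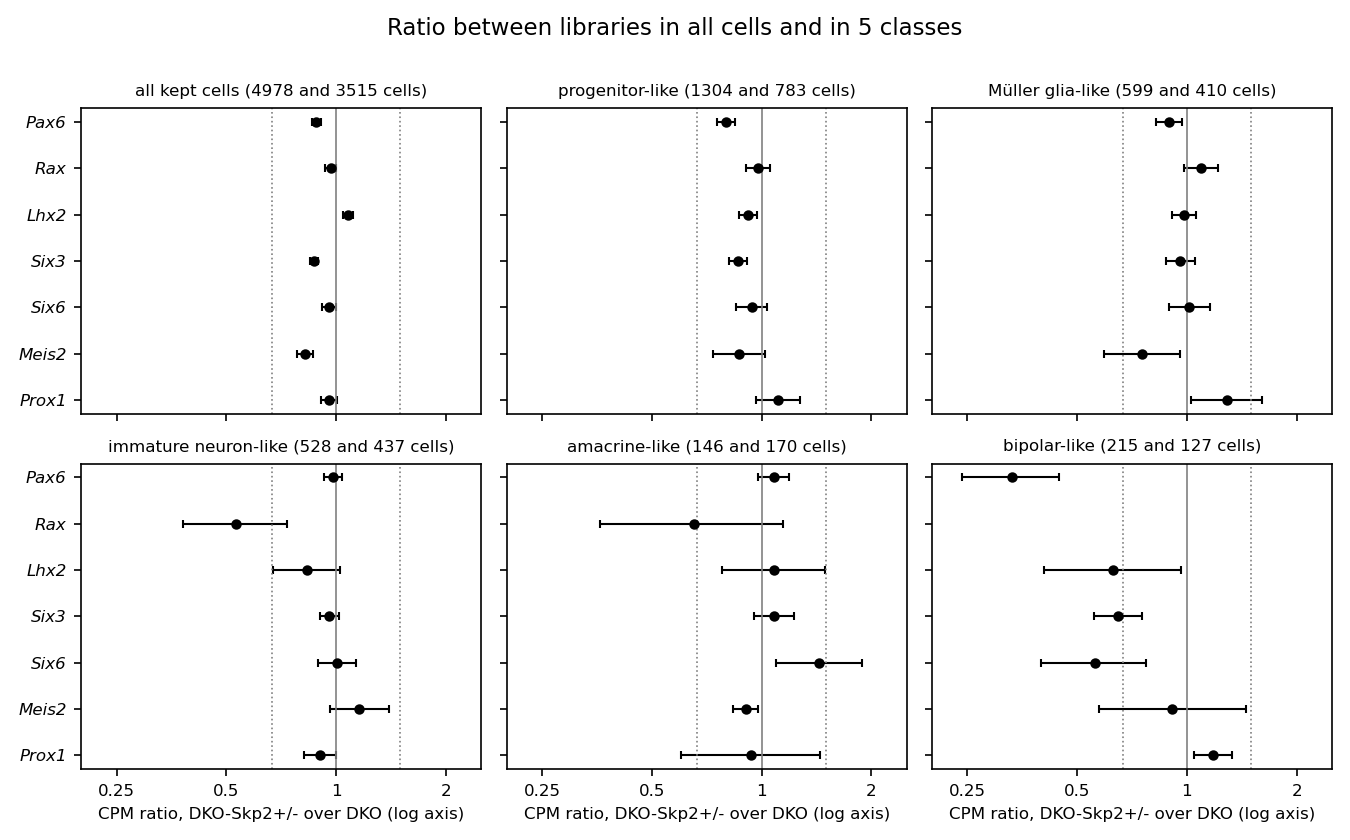
Ratio of CPM in DKO-Skp2+/- over DKO cells (log axis) for each gene in all kept cells and in 5 classes, with exact conditional 95% intervals of counting error; dotted lines mark 1.5-fold either way, and Rax in bipolar-like cells, with under 50 UMIs, is not drawn. Pax6 in bipolar-like cells sits lowest at 0.33, and Rax in immature neuron-like cells at 0.53; Rax in amacrine-like cells, at 0.65 from 20 and 40 UMIs, passes the line here but not on log2(CPM + 5).

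In progenitor-like cells none of the 7 genes passed 1.5-fold, where 1.89% of all measured genes did. Pax6 stood at 522 CPM in DKO-Skp2+/- and 654 CPM in DKO (0.80, 0.76 to 0.84), Six3 at 502 and 583 CPM (0.86, 0.81 to 0.91) and Lhx2 at 563 and 613 CPM (0.92, 0.87 to 0.97). Within cluster 1, which held most of the class in DKO-Skp2+/-, Pax6 had a ratio of 0.94 (0.86 to 1.04), Six3 of 1.05 (0.94 to 1.17) and Lhx2 of 1.15 (1.04 to 1.28). Within cluster 2, which held most of it in DKO, the Pax6 ratio was 0.80 (0.75 to 0.86), the Six3 ratio 0.91 (0.85 to 0.97) and the Lhx2 ratio 0.90 (0.84 to 0.96). The 26 proliferation genes summed to 6889 CPM in DKO-Skp2+/- and 9383 CPM in DKO progenitor-like cells (0.73, 25 lower), and their part in the Pax6 and Six3 ratios of the class was not tested. Among non-dividing progenitor-like cells the order of Lhx2 was the other way, at 517 CPM in DKO-Skp2+/- and 428 CPM in DKO. In Müller glia-like cells none passed either, where 3.01% of all measured genes did, and the ratios of Lhx2, Six3 and Six6 were 0.98, 0.96 and 1.01. Those of Pax6, Rax, Meis2 and Prox1 were 0.89 (0.82 to 0.97), 1.09 (0.98 to 1.21), 0.75 (0.59 to 0.96) and 1.28 (1.03 to 1.61). Among dividing Müller glia-like cells Meis2 was lower past 1.5-fold, at 54.2 CPM in DKO-Skp2+/- and 90.1 CPM in DKO, from 38 and 57 UMIs, where 2.07% of genes were lower. Neurogenic precursor-, photoreceptor and bipolar precursor- and rod-like cells likewise held 0 of 7 past 1.5-fold, where 2.73%, 2.43% and 4.18% of genes passed.

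Bipolar-like cells had 4 of 6 measured genes past 1.5-fold, all of them lower in DKO-Skp2+/-, where 5.09% of the 5248 measured genes were lower. The class held 215 DKO-Skp2+/- and 127 DKO cells, at median depths of 3592 and 4613 UMIs. Pax6 had 59 UMIs in DKO-Skp2+/- and 171 in DKO, at 67.6 and 204 CPM, a ratio of 0.33 (0.24 to 0.45). Six6 stood at 68.7 CPM in DKO-Skp2+/- and 123 CPM in DKO (0.56, 0.40 to 0.77), Six3 at 328 and 506 CPM (0.65, 0.56 to 0.75) and Lhx2 at 43.5 and 69.3 CPM (0.63, 0.41 to 0.96). Prox1, highest here among the 8 classes, stood at 695 CPM in DKO-Skp2+/- and 589 CPM in DKO (1.18, 1.05 to 1.33). Meis2 stood at 44.7 and 49.0 CPM (0.91, 0.57 to 1.45). Rax, with 18 and 26 UMIs, was too low to count. The DKO-Skp2+/- levels of Pax6 and Lhx2 lay within the intervals of the microglia-like background of that library, 26.8 to 78.9 CPM for Pax6 and 13.1 to 54.5 CPM for Lhx2.

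The Pax6 transcripts of this class sat in few cells. They were found in 26 of 215 DKO-Skp2+/- and 45 of 127 DKO bipolar-like cells, and 4 DKO-Skp2+/- and 15 DKO cells had 5 or more Pax6 UMIs. The 5% of cells with the most Pax6 held 71.2% of its UMIs in DKO-Skp2+/- and 34.5% in DKO. After thinning to 1500 UMIs, 6.51% (3.61 to 10.7) of DKO-Skp2+/- and 17.3% (11.2 to 25.04) of DKO bipolar-like cells had a Pax6 UMI, against 4.88% (0.596 to 16.5) of DKO-Skp2+/- microglia-like cells. Unthinned shares were 12.1% in DKO-Skp2+/- and 35.4% in DKO bipolar-like cells, against 17.1% and 6.90% in microglia-like cells, so the DKO-Skp2+/- share was at background. At 1500 UMIs Pax6, Six6 and Lhx2 had too few UMIs to be measured. Six3 was measured after thinning and differed by -0.48 on the log2 scale, short of 1.5-fold, and Lhx2 differed by 0.06 with cells assigned to classes one at a time. Marker lists of other cell types also differed between the libraries in this class, in both directions. The immature neuron list summed to 438 CPM in DKO-Skp2+/- and 1229 CPM in DKO bipolar-like cells (0.36, 6 of 6 genes lower), and the amacrine list to 98.5 and 197 CPM (0.50, 9 of 12 lower), with Gad1 and Chat at 0 in both libraries. The 26 proliferation genes summed to 325 and 727 CPM (0.45, 24 lower), while the bipolar list summed to 10416 and 7121 CPM (1.46) and the rod list to 483 and 208 CPM (2.32). The progenitor list summed to 1301 CPM in DKO-Skp2+/- and 1054 CPM in DKO (1.23), and the neurogenic precursor list to 948 and 884 CPM (1.07). The ratios of the Müller glia, horizontal and cone lists were 0.76, 0.65 and 0.65. The part of all these lists in the lower Pax6, Six3, Six6 and Lhx2 levels was not tested. Among non-dividing bipolar-like cells (211 DKO-Skp2+/- and 116 DKO), Pax6, Six3 and Six6 were again past 1.5-fold and Lhx2 was not, where 4.5% of genes were lower. Of the other eye homeobox genes, 1 of 19 measured was higher and 4 were lower in DKO-Skp2+/- bipolar-like cells: Sebox at 222 CPM in DKO-Skp2+/- and 134 CPM in DKO, and Zfhx4 (197 and 339 CPM), Irx5 (13.7 and 47.8 CPM), Irx6 (27.5 and 65.7 CPM) and Zeb1 (38.9 and 61.0 CPM). These 5 are named because they were the ones past the fold. Of the TALE partners 1 of 4 was higher, of the cofactors of Six3, Six6 and Pax6 1 of 7 was higher and 2 were lower, and of the LIM cofactors 0 of 6 passed. The median log2 difference was -0.62 for the 6 measured genes and 0.01 for all 5248.

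In immature neuron-like cells, Rax was the 1 gene of 7 past 1.5-fold, where 2.55% of genes were lower in DKO-Skp2+/-. It had 55 UMIs in DKO-Skp2+/- and 123 in DKO, at 23.5 and 44.4 CPM, a ratio of 0.53 (0.38 to 0.73). The microglia-like Rax levels were 19.1 CPM in DKO-Skp2+/- and 11.1 CPM in DKO, so the DKO-Skp2+/- level was near background. With doublets kept, the Rax difference was -0.54 on the log2 scale, short of 1.5-fold, and with a pseudocount of 20 CPM it was -0.56. In these cells the proliferation genes summed to 1030 CPM in DKO-Skp2+/- and 2020 CPM in DKO (0.51, 26 of 26 lower) and the cone list to 28.3 and 70.4 CPM (0.40), whose part in the Rax ratio was not tested. In amacrine-like cells 0 of 7 genes passed, where 5.17% of genes did, and the widest ratio among genes above background was that of Six6, at 146 CPM in DKO-Skp2+/- and 102 CPM in DKO (1.44, 1.10 to 1.88). In these cells the rod list summed to 353 CPM in DKO-Skp2+/- and 95.2 CPM in DKO (3.71), the ganglion list to 312 and 153 CPM (2.04) and the amacrine list to 4676 and 5859.9 CPM (0.80), and their part in the Six6 ratio was not tested. In cone-like cells (60 DKO-Skp2+/- and 40 DKO), Pax6 stood at 46.0 and 99.7 CPM, Lhx2 at 35.8 and 76.1 CPM and Six3 at 145 and 220 CPM, each past 1.5-fold, where 6.79% of genes were lower in DKO-Skp2+/-. Without the 1 DKO-Skp2+/- and 8 DKO dividing cone-like cells, Pax6 and Lhx2 had too few UMIs to be measured and 0 of 4 measured genes passed, where 4.12% of genes were lower. In all cone-like cells the proliferation genes summed to 560 CPM in DKO-Skp2+/- and 1721 CPM in DKO (0.33) and the immature neuron list to 220 and 515 CPM (0.43), whose part was not tested. Unnamed cells (1073 DKO-Skp2+/- and 567 DKO) held 275 and 420.1 CPM of Pax6 and 295 and 460.2 CPM of Six3, also past 1.5-fold, where 2.97% of genes were lower. Their largest cluster held 886 of the DKO-Skp2+/- and 304 of the DKO cells, so the values also compare clusters.

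Over all kept cells, Meis2 and Prox1 were lower in dividing cells and Rax was higher, each past 1.5-fold in both libraries. Among all measured genes, 8.1% were higher and 14.2% lower in dividing DKO-Skp2+/- cells, and 8.58% were higher and 15.7% lower in dividing DKO cells. Meis2 stood at 63.4 CPM in dividing and 157 CPM in non-dividing DKO-Skp2+/- cells (0.40, 0.37 to 0.44), and at 67.2 and 242 CPM in DKO cells (0.28, 0.26 to 0.30). Prox1 stood at 91.8 CPM in dividing and 170 CPM in non-dividing DKO-Skp2+/- cells (0.54, 0.50 to 0.58), and at 101 and 196 CPM in DKO cells (0.51, 0.48 to 0.55). Rax stood at 305 CPM in dividing and 200 CPM in non-dividing DKO-Skp2+/- cells (1.53, 1.45 to 1.61), and at 321 and 165 CPM in DKO cells (1.95, 1.84 to 2.07). The DKO-Skp2+/- Rax difference was 0.60 on the log2 scale and fell short of 1.5-fold after thinning to 1500 UMIs (0.47), with a pseudocount of 20 CPM (0.56) and with dividing cells set at 5 UMIs (0.56). Lhx2 stood at 343 CPM in dividing and 247 CPM in non-dividing DKO-Skp2+/- cells (1.39), and at 322 and 195 CPM in DKO cells (1.65). Only the DKO difference was past the fold, but that of DKO-Skp2+/- passed it with a common floor of UMIs per cell (0.64 on the log2 scale) and with dividing cells set at 2 UMIs (0.59). Six3 was even, with ratios of 0.97 (0.93 to 1.01) in DKO-Skp2+/- and 0.98 (0.95 to 1.02) in DKO. Of the other eye homeobox genes, 3 of 29 measured were higher and 11 lower in dividing DKO-Skp2+/- cells, and 3 of 28 higher and 11 lower in dividing DKO cells. The TALE partners had 4 of 10 higher and 2 lower in DKO-Skp2+/-, and 3 of 10 higher and 2 lower in DKO.

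**Figure D4:**
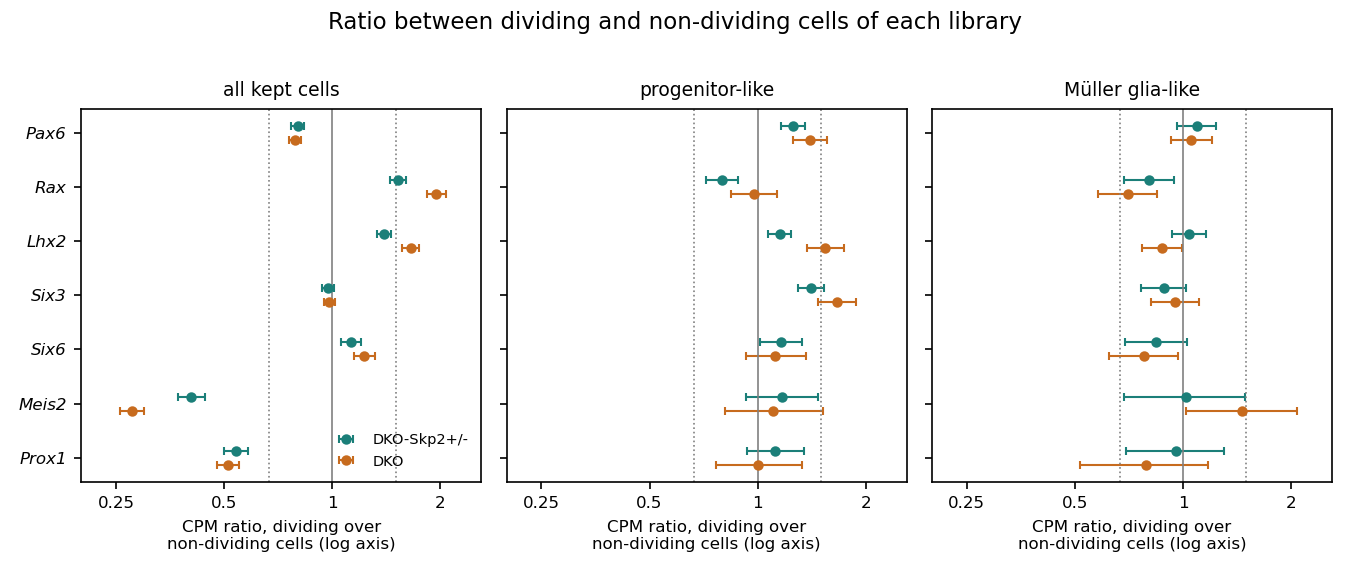
Ratio of CPM in dividing over non-dividing cells (log axis) for each gene in the DKO-Skp2+/- library (green, upper point) and the DKO library (orange, lower point), in all kept cells, progenitor-like and Müller glia-like cells, with exact conditional 95% intervals; dotted lines mark 1.5-fold either way. Meis2 and Prox1 lie left of the 1.5-fold line over all kept cells and between 1.00 and 1.17 in progenitor-like cells.

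The classes highest in Rax were mostly dividing. Dividing cells made up 100% of neurogenic precursor-like cells in both libraries. They made up 94.6% of photoreceptor and bipolar precursor-like cells in DKO-Skp2+/- and 95.4% in DKO. Of amacrine-like cells, highest in Meis2, 1.37% and 1.76% were dividing, and of bipolar-like cells, rich in Prox1, 1.86% and 8.66%. The part of these shares was not tested. The Meis2, Prox1 and Rax differences did not reach 1.5-fold within progenitor-like, Müller glia-like or immature neuron-like cells. In progenitor-like cells, Meis2 and Prox1 had ratios of dividing to non-dividing cells of 1.17 (0.93 to 1.47) and 1.12 (0.93 to 1.34) in DKO-Skp2+/-, and of 1.10 (0.81 to 1.52) and 1.00 (0.76 to 1.33) in DKO. Rax had 0.79 (0.72 to 0.88) in DKO-Skp2+/- and 0.98 (0.84 to 1.13) in DKO. The genes past 1.5-fold there were Six3 (1.66, 1.47 to 1.88) and Lhx2 (1.54, 1.37 to 1.74) in DKO, where 14.2% of genes were higher. In DKO-Skp2+/-, where 10.1% were higher, they had 1.41 (1.30 to 1.53) and 1.15 (1.07 to 1.24). Because cluster 2 was wholly dividing, those ratios also compare clusters. Cluster 2 held 1.48-fold (1.37 to 1.60) the Six3 of cluster 1 in DKO-Skp2+/- and 1.71-fold (1.55 to 1.90) in DKO. Within cluster 1 alone, dividing over non-dividing ratios of Six3 were 1.06 (0.92 to 1.21) in DKO-Skp2+/- and 1.07 (0.88 to 1.29) in DKO, and those of Lhx2 were 0.99 (0.87 to 1.12) and 1.12 (0.93 to 1.34). In Müller glia-like cells none of the 7 passed, where 9.93% of genes did in DKO-Skp2+/- and 9.28% in DKO. Rax was lower in dividing Müller glia-like cells at 0.80 (0.68 to 0.94) in DKO-Skp2+/- and 0.70 (0.58 to 0.85) in DKO. In immature neuron-like cells none of the 7 passed either, where 22% of genes did in DKO-Skp2+/- and 12.1% in DKO. In DKO rod-like cells (35 dividing, 123 non-dividing), 4 of 7 passed, where 22.6% of genes did: Lhx2 stood at 132 CPM in dividing and 60.3 CPM in non-dividing cells, Prox1 at 129 and 61.2 CPM, Six6 at 177 and 93.3 CPM, and Meis2 at 69.0 and 171 CPM. These values mix clusters 9 and 18. Within cluster 9 alone (30 dividing, 96 non-dividing), the ratios were 2.10 for Lhx2, 2.22 for Six6 and 0.43 for Meis2. Prox1 had too few UMIs there to be measured. Pax6 and Six3, not past 1.5-fold in the class, had ratios of 1.84 and 1.67 in that cluster. In unnamed cells Prox1 stood at 80.8 CPM in dividing and 119 CPM in non-dividing DKO-Skp2+/- cells (0.68), and at 108 and 212 CPM in DKO cells (0.51), past 1.5-fold in DKO, where 4.13% of genes were lower.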

How the data were processed

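Libraries were made with 10x Single Cell 3′ v2 chemistry, per the labels' protocols. The authors deposited 1 matrix of raw UMI counts per library; Cell Ranger 2.2.0 and mm10 are named in the submitters' processing notes. From these counts, barcodes under 500 detected genes or over 20% mitochondrial UMIs were left out. Simulated doublets were scored and the top 0.8% per 1000 barcodes removed. Cells were clustered on 2000 variable genes and 30 components (Leiden, leidenalg 0.10.2, resolution 1) without the 7 genes and cell cycle lists. Clusters took a name with a mean log2 fold of at least 1 over a marker list and at least 3 markers past 2-fold. UMIs were summed per class and library and divided by all UMIs (CPM). Levels have exact Poisson intervals, ratios exact conditional binomial intervals, and shares Clopper-Pearson intervals; all treat UMIs as independent. A gene was called past 1.5-fold on log2(CPM + 5) with at least 50 UMIs over both sides; there was no replicate and no test. The calling step was tested on simulated data. Of the gene rows, 27645 matched GENCODE M21. The 26-gene proliferation list was written for this work, not taken from earlier processing. All 7 genes are named; other genes follow from the lists (the widest pair per list) or the 3 highest correlations. The genes and lists were chosen with earlier results of these data known. Alternatives covered thinning, depth floor, size factors, doublets, filters, pseudocounts, clustering, class assignment and the dividing threshold.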

Additional observations from a re-analysis of the deposited data

Results flagged for a closer look

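Six6 moved in opposite directions between the libraries in 2 classes. The ratio of DKO-Skp2+/- over DKO cells was 1.44 (1.10 to 1.88) in amacrine-like cells, from 119 UMIs in DKO-Skp2+/- and 108 in DKO, and 0.558 (0.399 to 0.775) in bipolar-like cells, from 60 and 103 UMIs. The difference between these ratios was not tested. Within amacrine-like cells the ratio was 1.53 (1.14 to 2.06) in cluster 12, while cluster 16 held 48.5 CPM in DKO-Skp2+/- and 60.3 CPM in DKO, from 12 and 22 UMIs. In amacrine-like cells the rod, ganglion and amacrine lists had ratios of 3.71, 2.04 and 0.80, whose part was not tested.

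Prox1os, on the strand opposite to Prox1 and overlapping it, showed a signal outside the 7 genes. It stood at 32.0 CPM in DKO-Skp2+/- (764 UMIs) and 12.2 CPM in DKO (285 UMIs), a ratio of 2.62 (2.29 to 3.02), while Prox1 itself had a ratio of 0.96. The Prox1os ratio was 2.82 (2.06 to 3.91) in progenitor-like, 3.29 (1.98 to 5.72) in Müller glia-like, 3.04 (2.38 to 3.89) in immature neuron-like, 3.63 (1.87 to 7.38) in photoreceptor and bipolar precursor-like and 2.29 (1.39 to 3.91) in bipolar-like cells. The interval held 1 in neurogenic precursor-like (1.27, 0.65 to 2.57), rod-like (1.44, 0.67 to 3.20) and amacrine-like cells (1.96, 0.46 to 9.42). Use of strand in the counting was not stated in the sources used here, and whether reads of Prox1 and Prox1os were mixed was not tested.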

How the results depend on the processing

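Of 1015 recomputed values of single genes, 919 moved by less than their counting interval and 95 moved by more. That total includes the setting with no minimum of UMIs, which cannot change a value (76 of 76 unmoved). It also includes leaving out cluster 18, which could change only rod-like values (53 of 55 unmoved). Leaving out clusters 2 and 13 could change only progenitor-like and Müller glia-like values (51 of 55 unmoved). Thinning to 1500 UMIs moved 23 of 65 values, setting dividing cells at 5 UMIs moved 7 of 14, and equal make-up moved 5 of 7. Only 1 value past 1.5-fold changed sign, Lhx2 in bipolar-like cells. Its log2 difference was 0.056 with cells assigned one at a time, against -0.62 with clusters, and the cause was not tested. Lhx2 in progenitor-like cells, not past 1.5-fold, also changed sign, at 0.27 without dividing cells and 0.20 without clusters 2 and 13, against -0.12. In the 8 main classes, the 5 gene and class pairs past 1.5-fold between libraries became 2 after thinning to 1500 UMIs, when Pax6, Six6 and Lhx2 in bipolar-like cells and Rax in immature neuron-like cells had under 50 UMIs, and 3 with a pseudocount of 20 CPM. The 2 pairs called after thinning were different ones. Pax6 in neurogenic precursor-like cells had a log2 difference of -0.66, against -0.37 as reported. Meis2 in photoreceptor and bipolar precursor-like cells had -0.62, against 0.24 as reported, so its sign changed. Other values not past 1.5-fold as reported also changed sign, among them Rax (-0.53, range -0.60 to 0.20) and Lhx2 (0.10, range -0.56 to 0.29) in amacrine-like cells. With a pseudocount of 1 CPM, 1 gene of the partner lists passed, against 0 with 5 CPM. Log2 differences in bipolar-like cells ranged from -1.96 to -1.01 for Pax6 and from -0.83 to -0.62 for Six6 where they were measured, and from -0.71 to -0.48 for Six3. The 7 of 14 differences past 1.5-fold between dividing and non-dividing cells became 6 to 8. Leaving out dividing cells, cluster 18, or clusters 2 and 13 gave 4, 5 and 5 gene and class pairs past 1.5-fold between libraries. These alternatives were chosen after seeing the data. Leaving out clusters 18, 2 or 13 could not lose any of the 5 reported pairs, because these clusters hold no bipolar-like or immature neuron-like cells. One-at-a-time assignment left 943 cells within 0.1 of its score limit. No paired analysis was possible because each genotype has 1 library. With 1 library per genotype, a difference between genotypes cannot be told apart from one between these preparations, and depth limits Rax, Lhx2 and Six6 in the smaller classes.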
